A study of Mus musculus with 2 samples.

Results

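Coagulation and fibrinolysis genes were followed through the leukocytes of the mouse aorta. The set holds 6 of the 27998 genes in the deposited count tables, found by the symbols F10, F13A1, THBS1, PF4, PLAUR and PLAU read without regard to case. All 6, written F10, F13a1, Thbs1, Pf4, Plaur and Plau in the mouse, had counts in both libraries. They were put together because of levels seen in these same cells, so their distribution over cell classes is given as a description, without a test. The mice were ApoE-/- on the C57BL6/J strain in both groups, that is, without apolipoprotein E, a genotype in which aortas form atherosclerotic plaques. One group received a chow diet and the other a diet labelled WD. The labels used here state no age, sex or time on diet. Viable CD45+ cells, a gate that takes leukocytes in general, were sorted from digested aortas, and the cells of 10 aortas were pooled into 1 library per diet. Each diet is therefore 1 sample: diet, pool and library cannot be told apart, and every interval below covers counting error only.

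Clotting turns soluble fibrinogen into a fibrin mesh, and fibrinolysis takes it apart again. F10 encodes coagulation factor X, the protease that in its active form makes thrombin, and F13a1 encodes the catalytic A subunit of factor XIII, the transglutaminase that cross-links fibrin. Thbs1 (thrombospondin 1, a large adhesive glycoprotein) and Pf4 (platelet factor 4, the chemokine CXCL4) are best known from platelet granules. Plau encodes urokinase, a protease that activates plasminogen, and Plaur its receptor uPAR, which holds urokinase at the cell surface. Factor X in plasma comes mainly from the liver, whereas the factor XIII A subunit comes from cells of bone marrow origin, macrophages included.

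After filtering, 892 chow cells and 2059 WD cells were left, with medians of 3740.5 and 3185 unique molecular identifiers (UMIs, 1 per counted RNA molecule) per cell. Of the barcodes, 3 occurred in both libraries. Clusters were built with the 6 genes left out and were named from marker genes. Monocyte-like cells (27 chow, 60 WD) carried Ly6c2 in 64.4% and Ccr2 in 59.8% of cells, and were led by Clec4e, Spp1 and Osm. The macrophage marker C1qa was found in 4.60% of them and the neutrophil marker S100a8 in 5.75%. Macrophage-like cells (44 and 203) fell into sub-clusters: a resident one (9 and 56 cells, Lyve1 in 47.7% and Folr2 in 73.8%), a middle one led by Egr1, Cxcl2 and Gm17056 (21 and 108, Lyve1 in 19.4%, Folr2 in 50.4%), and a low-resident one led by Spp1, Mmp12 and AA467197 (10 and 29, Lyve1 in 0%, Folr2 in 2.56%). A further 14 macrophage-like cells held B cell markers and were kept apart from these sub-clusters, but they count in the macrophage-like class as a whole. The Cd209a dendritic cell-like cluster (72 and 185 cells) had as many monocyte markers as dendritic cell markers among its 10 leading genes. In it, 40.3% of chow cells and 15.7% of WD cells carried 3 or more UMIs of markers of 2 lineages. Platelet RNA was rare: the 10 platelet and megakaryocyte markers had 0 UMIs in monocyte-like cells and 1 and 5 UMIs in macrophage-like cells, with Gp9, Gp1ba, Gp6 and Treml1 at 0 UMIs in every cell.

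The promoters of 4 of the 6 genes could be read in RefSeq's table for GRCm38.p6, and the 250 bases before the start are shown for each, because these genes marked different cells. Matches on either strand to 6 short motifs are in capitals. The letters searched were TGANTCA for AP-1, the site of Fos and Jun dimers, and TTGCNNAA for the C/EBP family of myeloid factors. The core of ETS factors such as PU.1 was searched as AGGAAG, the site of GATA factors as AGATAA, the core of MAF factors as TGCTGA, and the GC box of the Sp1 family as GGGCGG. F10 is shown from chr8:13037058-13037307 on the plus strand, Pf4 from chr5:90772185-90772434 on the plus strand, F13a1 from chr13:37050245-37050494 on the minus strand and Plaur from chr7:24462233-24462482 on the plus strand.
F10: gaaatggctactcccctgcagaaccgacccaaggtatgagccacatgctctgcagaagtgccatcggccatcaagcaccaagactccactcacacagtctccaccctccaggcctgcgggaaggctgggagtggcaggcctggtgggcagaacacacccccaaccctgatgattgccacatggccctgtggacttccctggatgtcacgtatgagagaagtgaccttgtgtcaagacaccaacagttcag
Pf4: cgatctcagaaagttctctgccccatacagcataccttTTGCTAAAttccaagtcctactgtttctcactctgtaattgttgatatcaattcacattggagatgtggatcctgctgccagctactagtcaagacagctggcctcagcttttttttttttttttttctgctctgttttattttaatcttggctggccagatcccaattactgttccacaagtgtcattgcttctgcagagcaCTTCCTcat
F13a1: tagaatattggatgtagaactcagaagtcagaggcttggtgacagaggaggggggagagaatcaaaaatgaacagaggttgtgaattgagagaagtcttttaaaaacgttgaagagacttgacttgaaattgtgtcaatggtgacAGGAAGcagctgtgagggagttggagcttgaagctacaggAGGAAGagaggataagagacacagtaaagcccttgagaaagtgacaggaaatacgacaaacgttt
Plaur: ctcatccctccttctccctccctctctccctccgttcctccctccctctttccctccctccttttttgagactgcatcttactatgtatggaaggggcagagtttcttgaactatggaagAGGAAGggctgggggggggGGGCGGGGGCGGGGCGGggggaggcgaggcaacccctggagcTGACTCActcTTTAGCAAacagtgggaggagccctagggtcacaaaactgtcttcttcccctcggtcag

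The F10 window held none of the 6 motifs, which says only that those letters do not occur there. Pf4 had 1 C/EBP match, 212 bases before the start, and 1 ETS core, 9 bases before it. F13a1 had 2 ETS cores, 105 and 65 bases before the start, and a second RefSeq start of the gene (window chr13:37049214-37049463) had 1, 36 bases before it. Plaur held the most: an AP-1 match at 69 bases, a C/EBP match at 59, an ETS core at 130 and 3 GC boxes at 111, 105 and 100 bases, the last 2 of which overlap. Among 32851 promoter windows of this length, an AP-1 match occurred in 6.75%, C/EBP in 9.56%, the ETS core in 29.5%, GATA in 9.99%, the MAF core in 16.1% and the GC box in 32.7%. A match is a description of the letters, not a bound site.

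**Figure D1:**
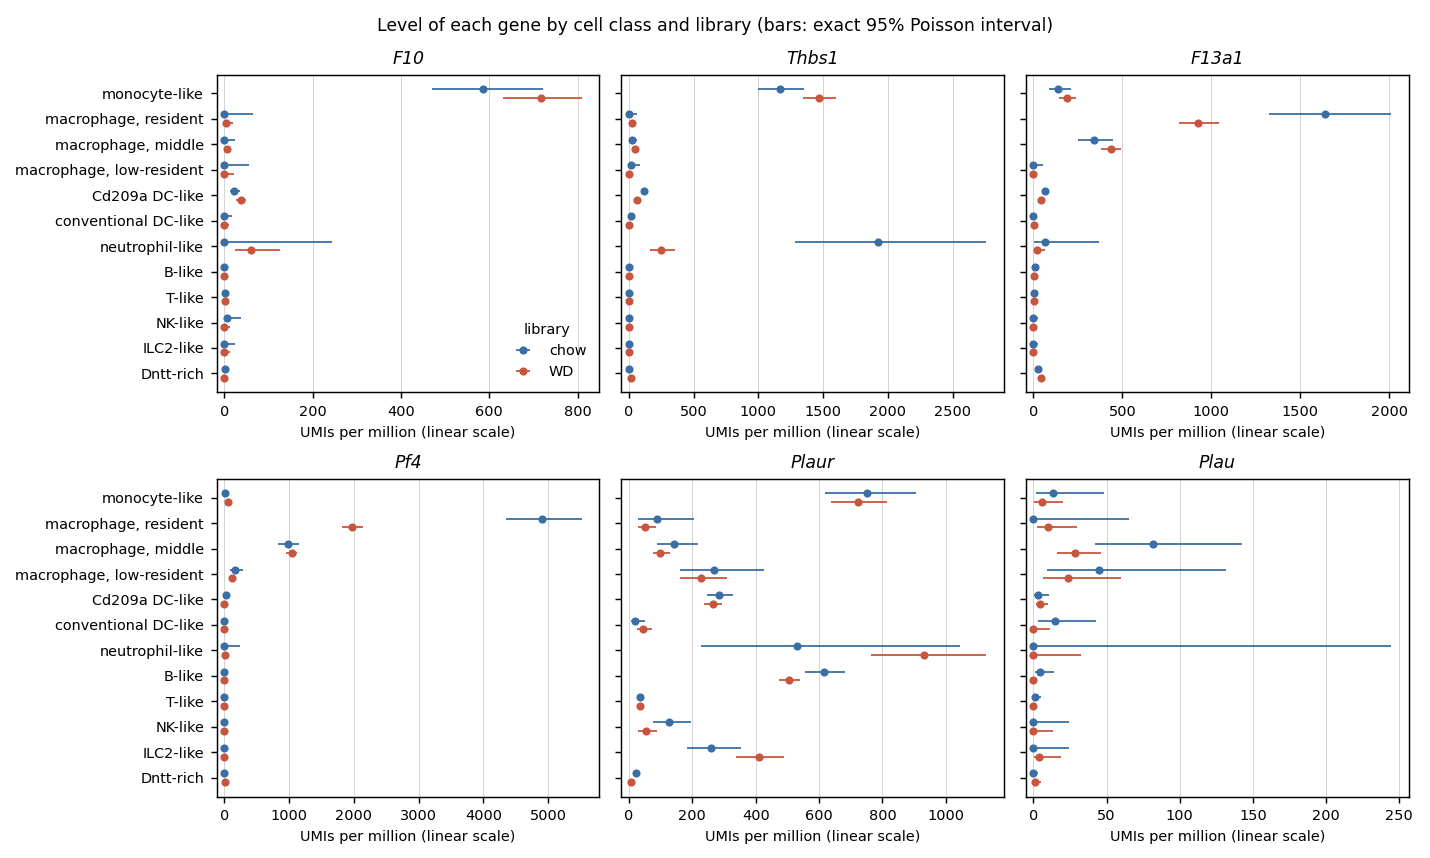
Level of each gene (x axes, UMIs per 1000000 UMIs of the class, linear scale) in 12 cell classes (y axis) of the chow (blue) and WD (red) library; points are pooled counts and bars exact 95% Poisson intervals. F10 was highest in monocyte-like cells (586 and 716), as was Thbs1 in WD (1468), while in chow Thbs1 was 1165 there and 1921 in the 5 neutrophil-like cells. F13a1 and Pf4 were highest in resident macrophages, and Plaur was high in monocyte-like, B-like and neutrophil-like cells.

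F10 (ENSMUSG00000031444, chromosome 8, 13037308 to 13056676 on the plus strand of GRCm38) was found mostly in monocyte-like cells. These cells, 3.03% of chow and 2.91% of WD cells, held 80.7% and 80.4% of all F10 UMIs. The level was 586 UMIs per 1000000 UMIs of the class (CPM) in the chow library (95% Poisson interval 470 to 722, 88 UMIs) and 716 CPM in WD (631 to 809, 259 UMIs). The chow level fell to 437 CPM without the single cell with 27 UMIs. Next came Cd209a dendritic cell-like cells with 22.0 (12.3 to 36.2) and 36.9 CPM (27.2 to 48.9), and the 18 neutrophil-like WD cells with 61.6 CPM (24.7 to 127) from 7 UMIs, an interval that overlaps theirs. Macrophage-like cells held 2 UMIs in chow (6.15 CPM) and 6 in WD (5.35 CPM), and conventional dendritic cell-like cells none, which allows up to 14.6 and 9.03 CPM. A UMI of F10 was present in 18 of 27 chow monocyte-like cells (66.7%, exact binomial interval 46.0 to 83.5) and 46 of 60 WD cells (76.7%, 64.0 to 86.6). B-like cells, read as the background of free RNA, had F10 in 0 of 170 and 0 of 565 cells, which allows shares of up to 1.76% and 0.531%. Their median depth was 2894.5 and 2459 UMIs against 5236 and 5697.5 in monocyte-like cells. With every cell thinned to 1000 UMIs, F10 was still found in 33.3% and 51.7% of monocyte-like cells.

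**Figure D2:**
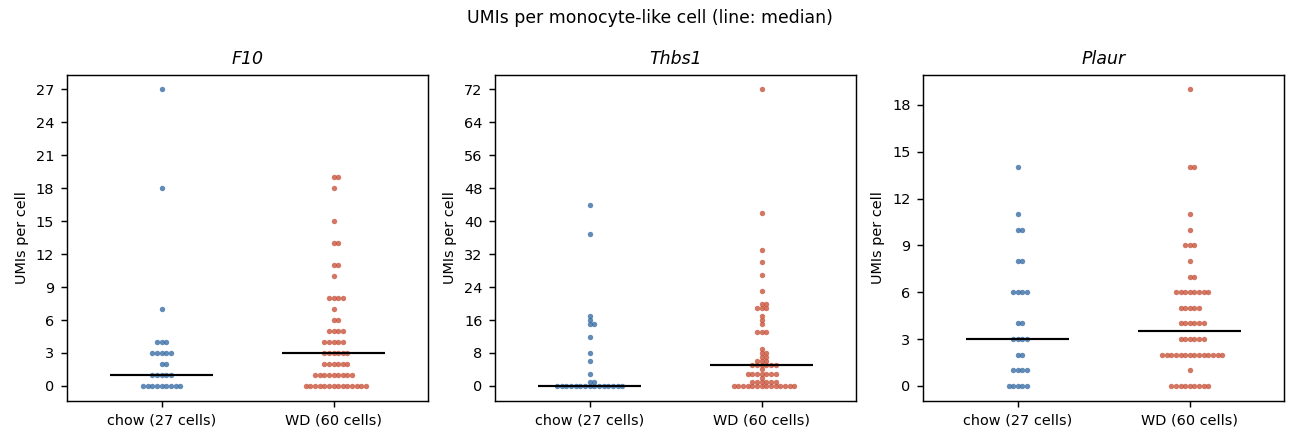
UMIs of F10, Thbs1 and Plaur (y axes, linear) in each monocyte-like cell of the chow (27) and WD (60) library; each dot is 1 cell and the line is the median. Median F10 was 1 and 3 UMIs, median Thbs1 0 and 5, and median Plaur 3 and 3.5, with long upper tails for Thbs1 (up to 44 and 72).

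Thbs1 (ENSMUSG00000040152, chromosome 2, 118111876 to 118127133, plus strand, with the antisense gene Gm29233 overlapping it) had the same leading class by share of UMIs. By level this class led in WD only. Monocyte-like cells carried 1165 CPM in chow (999 to 1351, 175 UMIs) and 1468 CPM in WD (1346 to 1598, 531 UMIs), or 55.6% and 76.4% of its UMIs. The cells were uneven: in chow the lowest, median and highest monocyte-like cell held 0, 0 and 44 UMIs, and in WD 0, 5 and 72. A UMI was found in 44.4% of chow cells (25.5 to 64.7) and 76.7% of WD cells (64.0 to 86.6), or 25.9% and 55% after thinning. Neutrophil-like cells gave 1921 CPM in chow (1286 to 2759), with 23 of 29 UMIs in 1 of 5 cells, and 246 CPM in WD (164 to 356, 28 UMIs in 8 of 18 cells). The defining markers of neutrophil-like cells, 128569 and 228768 CPM in sum there, came to 79.9 and 218 CPM in monocyte-like cells.

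Cd209a dendritic cell-like cells came after these classes, with 120 CPM in chow (95.5 to 149) and 63.8 CPM in WD (50.8 to 79.1). Single cells weighed heavily there, with 22 of 82 UMIs in 1 chow cell and 26 of 83 in 1 WD cell. Within that cluster the levels of F10, Thbs1 and F13a1 were higher in cells that also held Fn1, one of the monocyte markers. F10 was 38.1 CPM with Fn1 and 3.17 CPM without it in chow, and 73.9 and 24.6 CPM in WD, where 24 of its 48 UMIs lay in cells without Fn1. In WD, the 37 cells with Fn1 had 197 CPM of Thbs1 and the 148 without it 19.5 CPM, and for F13a1 the values were 135 and 10.2 CPM. In chow, Thbs1 was 139 and 98.1 CPM and F13a1 117 and 6.33 CPM in 34 and 38 cells. With Ly6c2, another monocyte marker, Thbs1 was 103 CPM and without it 128 CPM in chow, and 61.1 and 64.7 CPM in WD. F10 was 4.88 and 29.3 CPM in chow and 52.3 and 31.3 CPM in WD. Only F13a1 was higher with Ly6c2 in both libraries. F10, Thbs1 and F13a1 were also higher in cells with the macrophage marker C1qa, in both libraries. With Cd209a, the marker that names the cluster, F10 was lower: 4.65 CPM with and 51.5 CPM without it in chow. In WD these values were 16.2 and 77.6 CPM. Cells without a Cd209a UMI held 13 of 15 F10 UMIs in chow and 34 of 48 in WD. F13a1 was 27.9 and 131 CPM in chow and 19.7 and 84.4 CPM in WD. Thbs1 had no common direction, with 116 and 127 CPM in chow and 68.4 and 54.7 CPM in WD. Resident macrophages held 0 Thbs1 UMIs in chow and 8 in WD (27.4 CPM), 7 of them in 1 cell. The B-like background was 3 UMIs in 170 chow cells and 0 in 565 WD cells.

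F13a1 (ENSMUSG00000039109, chromosome 13, 36867178 to 37050244, minus strand, with the antisense genes Gm49144 and Gm30489) followed the resident markers among macrophages. Resident macrophages had 1640 CPM in chow (1324 to 2010, 93 UMIs) and 927 CPM in WD (820 to 1044, 271 UMIs). The middle sub-cluster had 339 CPM (252 to 447) and 435 CPM (382 to 493). The low-resident sub-cluster held no F13a1 UMI in any of its 10 chow and 29 WD cells, which allows up to 45.0 and 17.5 CPM, at a median depth of 5837 and 5928 UMIs per cell. The 3 sub-clusters did not overlap in their counting intervals in either library. Monocyte-like cells had 140 CPM (86.6 to 214) and 188 CPM (146 to 238), below the middle macrophages. In chow 9 of their 21 UMIs lay in 1 cell. F13a1 in WD was 218 CPM in the 44 cells with an Ly6c2 UMI and 58.1 CPM in the 16 without. In chow it was 192 and 64.9 CPM in 12 and 15 cells. It was also higher with Fn1 in both libraries, but with Clec4e and Chil3 only in WD. In chow it was 63.4 CPM with Clec4e and 270 CPM without, and for Chil3 83.7 and 177 CPM.

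F13a1 was also counted in cells that are not myeloid. Dntt-rich cells, which carry the terminal transferase of immature lymphocytes, had 28.1 CPM in chow (19.2 to 39.7) and 42.3 CPM in WD (31.1 to 56.0), against 7.98 and 1.67 CPM in B-like and 2.76 and 3.5 CPM in T-like cells. Of their 4 clusters, the non-cycling one, led by Rag1, was highest, at 102 CPM in chow (61.4 to 159, 14 of 85 cells) and 75.3 CPM in WD (37.6 to 135, 10 of 76 cells). The proliferating clusters had 21.1 and 44.8 CPM and 7.45 and 35.1 CPM, where 1 WD cell held 11 of 18 UMIs, and the fourth, of 23 cells, had none. Dntt-rich cells as a whole held 12.3% and 6.78% of all F13a1 UMIs. Conventional dendritic cell-like cells had 0 UMIs in chow and 1 in WD.

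Pf4 (ENSMUSG00000029373, chromosome 5, 90772435 to 90773383, plus strand) was a macrophage gene in these cells: macrophage-like cells held 95.8% of its UMIs in chow and 96.5% in WD. Its level stepped down over the sub-clusters in both libraries. Resident macrophages had 4904 CPM in chow (4344 to 5515, 278 UMIs) and 1973 CPM in WD (1816 to 2141, 577 UMIs). The middle sub-cluster had 978 CPM (824 to 1151) and 1040 CPM (958 to 1128), and the low-resident one 165 CPM (82.3 to 295) and 117 CPM (71.2 to 180). All 9 chow resident cells carried Pf4, from 3 to 70 UMIs with a median of 25, while in WD 45 of 56 did (80.4%, 67.6 to 89.8), from 0 to 61 UMIs with a median of 8. B-like cells had 0 UMIs in both libraries. In WD monocyte-like cells 21 of the 22 Pf4 UMIs lay in 1 cell, so that class had Pf4 in 2 of 60 cells only (3.33%, 0.406 to 11.5). Ppbp, a platelet chemokine and one of the platelet markers above, had 7 UMIs in all cells together.

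**Figure D3:**
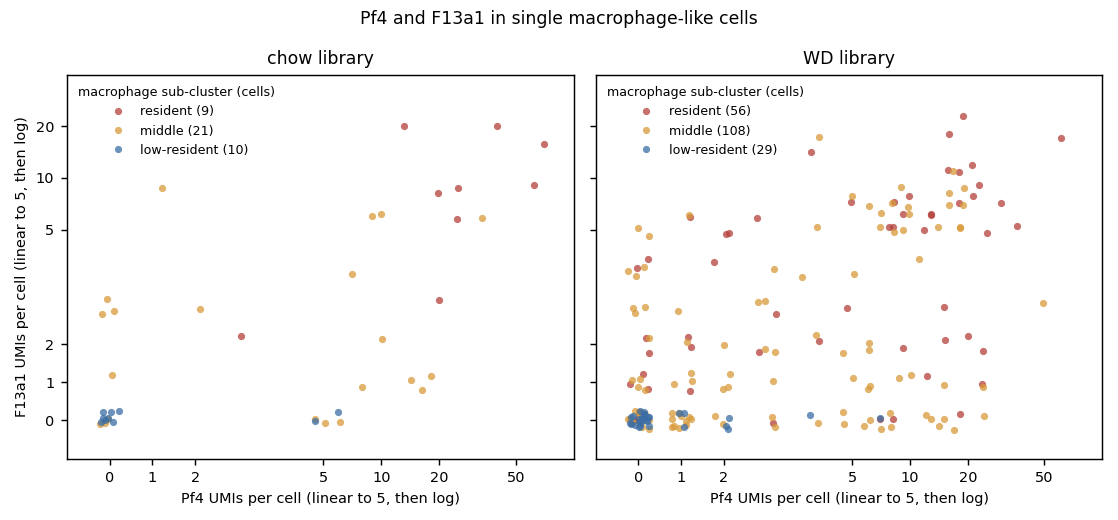
Pf4 (x axis) and F13a1 (y axis) UMIs in each macrophage-like cell of the resident (red), middle (orange) and low-resident (blue) sub-cluster, for the chow (left) and WD (right) library; axes are linear to 5 and logarithmic above, and points are shifted slightly so that equal values can be seen. No low-resident cell carried F13a1, and all 9 resident chow cells carried both genes.

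Over all macrophage-like cells together, F13a1 was found more often in cells with Pf4. The sub-clusters pooled here differ in both genes, and the gap within each sub-cluster was not tested. Of chow macrophage-like cells with Pf4, 78.6% also had F13a1 (22 of 28, 59.0 to 91.7), against 31.2% of those without (5 of 16, 11 to 58.7). In WD the shares were 68.9% (93 of 135, 60.4 to 76.6) and 29.4% (20 of 68, 19.0 to 41.7). After thinning to 1000 UMIs they were 55% and 25% in chow and 46.5% and 17.1% in WD, so the gap was 30.0 and 29.4 percentage points at equal depth. In WD, cells with and without Pf4 had similar depth (medians of 5128 and 5270.5 UMIs). The 13 chow cells with a Lyve1 UMI had 1470 CPM of F13a1 and 4120 CPM of Pf4, and the 31 without it 146 and 500.4 CPM. In WD the 46 cells with Lyve1 had 1102 and 2561 CPM, and the 157 without it 302 and 678 CPM. F10 and Thbs1 were read within the monocyte-like class alone, so their gap cannot be set directly against that of Pf4 and F13a1. In WD, F10 was found in 82.6% of cells with Thbs1 (68.6 to 92.2) and 57.1% of those without (28.9 to 82.3), intervals that overlap. Thinned, these shares were 57.6% and 44.4%.

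Plaur (ENSMUSG00000046223, chromosome 7, 24462484 to 24475968, plus strand) was the most widely spread of the 6. Monocyte-like cells had 752 CPM in chow (620 to 905) and 722 CPM in WD (637 to 815), and carried it in 22 of 27 and 51 of 60 cells. B-like cells had 616 CPM (556 to 680) and 506 CPM (474 to 540) and, being numerous, held 43.4% and 45.9% of all Plaur UMIs. The chow intervals of these 2 classes overlap and the WD ones do not. Among B-like clusters the largest, led by Ebf1, Gm31243 and Cd79a, had 735 and 602 CPM, and the cluster led by Mzb1 had 457 and 275 CPM. Neutrophil-like cells had 932 CPM in WD (763 to 1128, 16 of 18 cells) and 530 CPM in chow, there from 1 cell. Innate lymphoid ILC2-like cells followed with 259 and 409 CPM, and Cd209a dendritic cell-like cells with 284 and 264 CPM.

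At the low end of Plaur were T-like cells, with 35.9 CPM (25.5 to 49.1) and 36.5 CPM (28.6 to 45.9), and Dntt-rich cells, with 22.0 and 7.92 CPM, far below the B-like level. Conventional dendritic cell-like cells, at 19.5 (5.31 to 49.9) and 45.2 CPM (25.3 to 74.5), lay near T-like cells. Among macrophages Plaur ran the other way from Pf4 and F13a1. The low-resident sub-cluster had 270 CPM (160 to 426) and 227 CPM (162 to 311), the middle one 143 (88.2 to 218) and 99.4 (75.1 to 129), and the resident one 88.2 (28.6 to 206) and 51.3 (28.7 to 84.6). The chow intervals of neighbours in this order overlap, and all 5 chow resident UMIs came from 1 cell. In WD the low-resident sub-cluster stood above the middle one, while the intervals of the middle and resident ones overlap.

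Plau (ENSMUSG00000021822, chromosome 14, 20836660 to 20843385, plus strand), the ligand of uPAR, was rare: 31 UMIs in chow and 34 in WD. Macrophage-like cells held 64.5% and 70.6% of them, at 61.5 CPM in chow (37.6 to 94.9, 11 of 44 cells) and 21.4 CPM in WD (13.7 to 31.8, 23 of 203 cells). The middle sub-cluster had 81.5 CPM (42.1 to 142) and 28.4 CPM (16.2 to 46.1), and the others 4 UMIs or fewer each, apart from 5 in the 4 chow cells with B cell markers. No WD cell held more than 2 Plau UMIs. Monocyte-like cells, which carried Plaur at 752 and 722 CPM, had 2 Plau UMIs in each library (13.3 and 5.53 CPM). Within macrophage-like cells, Plau was found in 13.8% of WD cells with Plaur and 10.3% of those without, with overlapping intervals (6.15 to 25.4 and 5.91 to 16.5).

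**Figure D4:**
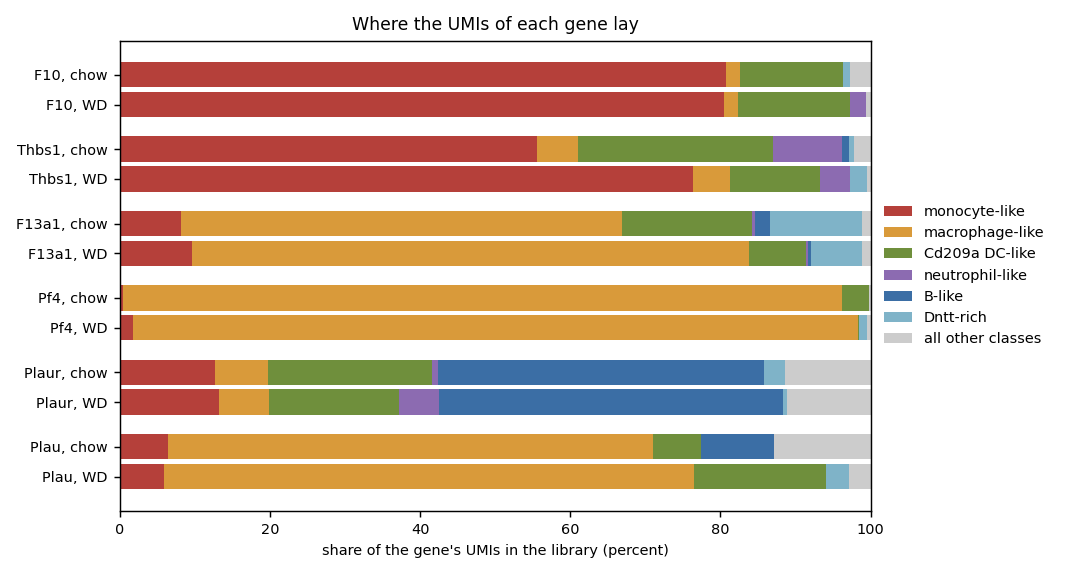
Share of each gene's UMIs (x axis, percent of the library's UMIs of that gene) in monocyte-like, macrophage-like, Cd209a dendritic cell-like, neutrophil-like, B-like, Dntt-rich and all other cells, 1 bar per gene and library. Monocyte-like cells take 80.7% and 80.4% of F10, macrophage-like cells 95.8% and 96.5% of Pf4, and B-like cells 43.4% and 45.9% of Plaur.

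The class differences were also read as ratios within each library. A ratio was counted when it was past 2-fold and its exact 95% interval excluded 1, among genes with at least 10 UMIs in the classes compared. Between monocyte-like cells and resident macrophages, 5 of the 6 genes could be measured and all 5 were counted in both libraries, 3 higher and 2 lower. Over all measured genes, 11.9% were higher and 8.99% lower in chow, and 9.81% higher and 10.8% lower in WD. Nothing is read from the comparison with these shares, since the genes were picked on such differences. In WD monocyte-like cells Thbs1 was 53.6-fold (27 to 125) and Plaur 14.1-fold (8.37 to 25.5) higher, and F10 had 259 UMIs against 1, a ratio of 209 (37.2 to 8300). In chow F10 and Thbs1 had 0 UMIs in the resident cells and were at least 11.1-fold and 22.0-fold higher against a floor of 3 counts for the group, and Plaur was 8.53-fold higher (3.55 to 26.8). F13a1 was 11.7-fold (7.25 to 19.8) and 4.93-fold (3.77 to 6.53) lower in monocyte-like cells, and Pf4 32.4-fold lower in WD (21.2 to 52.2). In chow Pf4 had 2 UMIs in monocyte-like cells against 278 in resident macrophages, a ratio of 368 (101 to 3055). With cells thinned to 1000 UMIs, the chow difference of F10 was no longer counted (log2 ratio 3.97).

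Against Cd209a dendritic cell-like cells, monocyte-like cells had 4 of 5 measured genes higher in chow and 5 of 5 in WD, with none lower. The shares over all genes were 7.43% higher and 4.02% lower in chow, and 7.47% and 6.9% in WD. F10 was 26.7-fold (15.3 to 49.7) and 19.4-fold (14.2 to 27) higher, Thbs1 9.70-fold (7.42 to 12.8) and 23.0-fold (18.2 to 29.4), and Plaur 2.65-fold (2.08 to 3.36) and 2.73-fold (2.32 to 3.22). F13a1 was 2.12-fold (1.2 to 3.64) and 4.53-fold (3.12 to 6.6) higher, and the chow value was no longer counted without its top cell in each class (log2 ratio 0.65). The WD difference of Pf4 rested on the 1 monocyte-like cell with 21 UMIs, and without the top cells Pf4 had too few UMIs to be measured.

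Resident macrophages compared with the middle and low-resident sub-clusters together had F13a1 7.02-fold higher in chow (4.93 to 10.1) and 2.78-fold higher in WD (2.33 to 3.32). Pf4 was 6.77-fold (5.54 to 8.29) and 2.39-fold (2.13 to 2.69) higher. Plaur was 2.52-fold lower in WD (1.45 to 4.68), and in chow 2.07-fold lower with an interval that includes 1 (0.814 to 6.72). Over all genes 8.95% were higher and 6.35% lower in chow, and 3.89% and 5.32% in WD. Thbs1 was not counted in WD (0.773-fold, 0.303 to 1.76), but it was counted as lower without the single cell with the most UMIs of each class (log2 ratio -2.43). Genes that cell dissociation induces differed between these classes as well: the 16 of that list summed to 23106 and 25416 CPM in resident, 32271 and 34558 CPM in middle, 10570 and 14526 CPM in low-resident and 11966 and 16429 CPM in monocyte-like cells. Their part in the levels of the 6 genes was not tested.

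Ratios between the diet libraries are given for classes with at least 50 cells in both. In Cd209a dendritic cell-like cells only Pf4 of 5 measured genes was counted, with 17 UMIs in chow and 1 in WD, and 12 of the 17 lay in 1 cell. Over all genes 2.07% were higher and 2.33% lower in WD. Thbs1 was at 0.531-fold of its chow level in WD (0.387 to 0.730), F13a1 at 0.630-fold (0.416 to 0.957), Plaur at 0.930-fold (0.778 to 1.12) and F10 at 1.68-fold (0.924 to 3.23). F13a1 and F10 turned under other clusterings: F13a1 was higher in WD at Leiden resolution 1.5 (log2 ratio 0.96), and F10 lower with the 6 genes kept in the clustering (log2 ratio -0.37). The chow cells of this class held more cells with markers of 2 lineages, as given above; without such cells Thbs1 was also counted as lower (log2 ratio -1.34). In B-like cells Plaur was at 0.822-fold in WD (0.729 to 0.928), which does not reach 2-fold, where 1.11% of genes were higher and 1.85% lower.

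Smaller classes are set side by side without a ratio interval. In monocyte-like cells the counting intervals of F10, F13a1 and Plaur overlap between the libraries. Those of Thbs1 only just do, at 999 to 1351 CPM in chow and 1346 to 1598 CPM in WD. Thbs1 was found in 44.4% of chow and 76.7% of WD monocyte-like cells, and 1 chow cell held 25.1% of the chow UMIs. In resident macrophages Pf4 was 4904 CPM in chow and 1973 CPM in WD, and F13a1 1640 and 927 CPM, with intervals that do not overlap. That chow value rests on 9 cells. When resident macrophages were instead taken as macrophage-like cells with 2 or more UMIs of resident markers, Pf4 was 2468 and 1840 CPM and F13a1 877 and 789 CPM. With Selenop counted among those markers, Pf4 was 1403 and 1145 CPM, and F13a1 turned, with 476 CPM in chow and 506 CPM in WD. Selenop was found in 100% of resident, 97.7% of middle and 84.6% of low-resident cells, so this gate hardly separates the sub-clusters. Its chow values lie close to those of macrophage-like cells taken whole. At a mitochondrial limit of 5% in place of 10%, the WD values were 2681 and 1232 CPM. In macrophage-like cells taken whole, F13a1 was 470.2 CPM (399 to 551) in chow and 468 CPM (429 to 510) in WD, and Pf4 1386 (1261 to 1520) and 1068 CPM (1008 to 1130). In the same cells Plaur was 191 and 118 CPM and Plau 61.5 and 21.4 CPM. The intervals of Pf4, Plaur and Plau do not overlap between the libraries there, and those of F13a1 do. This class includes the 14 cells with B cell markers. In chow these held 2.02% of all Plaur UMIs, where the whole class held 6.97%, and 16.1% of Plau, where it held 64.5%. Within the resident, middle and low-resident sub-clusters, on fewer UMIs, the intervals of Plaur and Plau overlap between the libraries.

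Beyond factor X and factor XIII A, few transcripts of the plasma clotting system were counted. Of 14 other clotting factor and fibrinogen genes in the files, F11, F12, F13b, Fga, Fgb, Fgg and Kng1 had 0 UMIs in all cells, and none reached 10 UMIs in any class comparison within a library. Over the myeloid classes Vwf had 26 UMIs, F7 11, F3 (tissue factor) 8 and F5 7. The 4 receptors of clotting proteases were not measurable there either, although F2r, the thrombin receptor PAR1, was at 57.1 and 64.1 CPM in T-like cells. Plg, the gene of plasminogen, had 0 UMIs. Of the vitamin K cycle, which makes factor X functional, Vkorc1 was at 20.0 and 24.9 CPM in monocyte-like cells and 70.6 and 92.3 CPM in resident macrophages. It was counted as lower in WD monocyte-like cells, the 1 gene of the 4 that could be measured there. The carboxylase gene Ggcx had 10 UMIs in the myeloid classes.

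A list of 9 genes held fibrinolysis enzymes and inhibitors and, beside them, Tgm2. Tgm2 was the 1 gene of the list that could be measured between monocyte-like cells and resident macrophages. No enzyme or inhibitor of fibrinolysis was measured there. Tgm2 is also among the 10 leading genes of the monocyte-like cluster. It encodes tissue transglutaminase, a relative of factor XIII A, and was at 426 and 406 CPM in monocyte-like cells, 0 and 17.1 in resident, 33.9 and 21.3 in middle and 299.9 and 75.8 in low-resident macrophages, and 35.1 and 89.9 in Cd209a dendritic cell-like cells. It was counted as higher in monocyte-like cells against both classes in both libraries, and as higher in WD in the Cd209a class. Serpinb2, the gene of a urokinase inhibitor, had 1 and 9 UMIs in monocyte-like cells and was counted as higher than in the Cd209a class in WD. The clotting inhibitor Pros1 (protein S) was at 106 and 85.5 CPM in resident macrophages and 6.66 and 19.4 CPM in monocyte-like cells, and was counted as higher in resident than in other macrophages in both libraries. Thbd (thrombomodulin) was at 46.6 and 16.6 CPM in monocyte-like cells and 17.6 and 30.8 CPM in resident macrophages.

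Surface partners of these proteins were counted in both directions, beside 11.9% higher and 8.99% lower over all genes in chow and 9.81% and 10.8% in WD. Of 11 plasminogen and urokinase binding genes, 7 in chow and 8 in WD were measured between monocyte-like cells and resident macrophages. Plgrkt and Anxa2 were counted as higher in WD monocyte-like cells, S100a10 as lower in chow and Hist1h2bc as lower in WD. S100a10, partner of annexin A2, was at 586 and 921 CPM in monocyte-like and 1711 and 790 CPM in resident cells, and Anxa2 was at 772 and 937 CPM against 899.6 and 465 CPM. Of 14 partners of thrombospondin 1, 7 were measured in chow and 9 in WD. Tgfb1 and Cd44 were counted as higher in monocyte-like cells in both libraries (Cd44 666 and 893 CPM against 106 and 178), and the scavenger receptor Cd36 as lower in both. The list's median log2 ratio was 0.11 in chow and 0.07 in WD, with 0.17 and -0.04 over all genes. Cd47 was at 313 and 301 CPM in monocyte-like cells and 229 and 287 CPM in resident macrophages. Of the chemokine list, Cxcl2 was at 8889 and 9888 CPM in monocyte-like cells, and in resident macrophages at 2681 and 1758 CPM; it and Srgn (serglycin, the granule proteoglycan) were counted as higher in both libraries. Of the 8 genes of the family that uPAR belongs to, 3 were measured in each library. Ly6i was at 273 and 63.6 CPM in monocyte-like cells with 0 UMIs in resident macrophages. Ly6a went opposite ways: it had 14 UMIs in chow monocyte-like cells and 0 in resident macrophages, and was counted as higher, whereas in WD it was at 82.9 CPM against 356 CPM and was counted as lower. The median log2 ratio of this list, on 3 genes each, was 4.34 in chow and -0.22 in WD, with 0.17 and -0.04 over all genes.

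Over the 19 clusters, the 9621 genes with at least 50 UMIs were ranked by the Pearson r of log2(CPM + 10) with each of the 6. The clusters share libraries and depth, so r is a description. Most like F10 were Gm9733 and Dmkn (both 0.98), Rhov (0.97), Klra2 (0.96) and Inhba (0.95). Most like Thbs1 were Gm5150 (0.98), Sirpb1b and Clec4e (0.97), Rhov (0.97) and Sirpb1c (0.97). F10 and Thbs1 themselves had an r of 0.94. Pf4 went with the resident markers Folr2 (0.98) and Cbr2 (0.97), and with Rin2, Lilra5 and Gdf3 (0.97, 0.97 and 0.96). F13a1 went with Ctsl, Atp6v1a, Lrp12 and Adgre1 (0.89 down to 0.84), and its r with Pf4 was 0.78. Plaur had no close match, the highest being Lyn (0.82), Mafg (0.82), Plcg2 (0.82), Ppp3ca (0.81) and Slc25a33 (0.81). For Plau, at its low counts, they were Gna12 (0.87), Hspb1, Trim47, Rab14 and Cd163 (0.78 to 0.77).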

How the data were processed

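Aortic CD45+ cells were counted by 10x Genomics 3' v2 chemistry in 1 library per diet. Per the submitters' processing notes, Cell Ranger and STAR were used with mm10; their versions and the strand setting are not given in these sources. The deposited values are UMI counts per gene and cell barcode, not normalized by the authors. Of 27998 gene IDs, 27645 matched GENCODE M21 symbols.

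Barcodes with under 200 genes (2 and 0) or over 10% mitochondrial UMIs (11 and 16) were removed, as were Scrublet calls (4 and 2, or 0.440% and 0.0963%, against 0.727% and 1.66% expected), so doublets remain possible. Cells were clustered in scanpy 1.11.5 (2000 variable genes without the 6 members, 30 components, 15 neighbours, Leiden resolution 1.0). A cluster was named where 3 of a type's markers were each in 20% of cells, unless another type led its top 10 genes. Clusters with Dntt in at least 50% of cells were kept as Dntt-rich. Macrophage-like cells formed 1 cluster and, after this had been seen, were clustered again (1000 variable genes, resolution 0.3); Selenop, present in all sub-clusters, was then left out of the resident markers.

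Summed UMIs per class and library were scaled to 1000000 (CPM) with exact Poisson intervals; shares have Clopper-Pearson intervals and ratios exact conditional ones. A count of 0 allows 3 counts. Log2 ratios had 0.5 UMIs added. With 1 library per diet no p-value was computed. The ratio procedure was run on simulated Poisson counts. Its intervals assume that model, so the run says nothing about counts that are uneven between cells. Named genes were the 6 members, up to 4 genes per fixed list with the most myeloid UMIs and the 5 most alike genes per member; other list genes, such as Serpinb2, Plgrkt, Hist1h2bc, Cd36, Ly6i, Plg and those at 0, were named after their values were seen. The members and lists were chosen with earlier results of these data known. A few genes that these rules would name are not reported here.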

Additional observations from a re-analysis of the deposited data

How the results depend on the processing

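No counted ratio changed sign under the alternatives run. Of ratios that were not counted, these did (log2): by the gate with Selenop, resident over other macrophages, Plaur (5.99) and Plau (4.41) in chow and Thbs1 (5.24) in WD, and, WD over chow in the Cd209a class, F10 with the 6 genes kept (-0.37), F13a1 at resolution 1.5 (0.96), and Plaur as a mean over cells (0.08) and without Cd79a cells (0.04). Selenop was found in 84.6% to 100% of cells in every sub-cluster, so the gate with Selenop hardly separates resident from other macrophages. F13a1 in resident macrophages, higher in chow than in WD under the other settings, was lower in chow by that gate. Levels in small classes, counts of genes and co-detection gaps moved. F10 in monocyte-like cells was 447 (chow) and 605 CPM (WD) with the 6 genes kept in the clustering, 426 and 595 CPM at Leiden resolution 1.5, and 407 and 933 CPM after thinning, and in chow 437 CPM without its top cell. Thbs1 there was 989.5 and 1144 CPM with the 6 genes kept, 944 and 1125 CPM at resolution 1.5, 915 and 1719 CPM as a mean over cells, and 908 and 1278 CPM without the top cell. In WD it was also 1600 CPM without cells with markers of 2 lineages and 1750 CPM after thinning. At resolution 0.5 monocyte-like cells merged with the Cd209a cluster and gave no value.

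Resident macrophages depended most on how they were delimited. By 2 or more UMIs of resident markers, F13a1 was 877 and 789 CPM and Pf4 2468 CPM in chow, and with Selenop among the markers 476 and 506 CPM and 1403 and 1145 CPM. WD F13a1 was 1219 CPM at resolution 0.5, 1232 CPM at a mitochondrial limit of 5%, 1214 CPM at a sub-cluster resolution of 0.8 and 1089 CPM after thinning. WD Pf4 was 2822, 2681 and 2761 CPM under the first 3 of these, and 2146 CPM without cells with markers of 2 lineages. The genes counted between resident and other macrophages went from 2 to 4 (gate) or 1 (gate with Selenop) in chow, and from 3 to 5 in WD under the same 3 settings. Between diets in the Cd209a class they went from 1 to 2 without cells with markers of 2 lineages or with a Cd79a UMI, and to 0 after thinning. Thinning took the gap in F13a1 between macrophages with and without Pf4 to 30 and 29.4 percentage points, and that in F10 between WD monocyte-like cells with and without Thbs1 to 13.1. The sub-cluster resolutions, the gate with Selenop and the Cd79a filter were chosen after seeing the data. No paired analysis was possible because each diet has 1 library. Depth limits Plau and the classes under 50 cells most.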
